A study of Mus musculus with 12 samples.

Results

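The genes described here encode the proteins of the cytoplasmic ribosome, measured by RNA-Seq in mouse PreMegE, the bone marrow progenitors of megakaryocytes and red blood cells. They are defined by name and biotype: protein-coding genes called Rpl or Rps plus a number, with an optional a, l or x, together with Rplp0, Rplp1, Rplp2, Rpsa and Fau. The rule found 82 genes among 41128 in the counts table, 49 of the large (60S) and 33 of the small (40S) subunit, and the rule uses no expression value. The set itself was proposed with earlier results of these data known. The relatives Rps3a1, Rps27rt, Rpl7l1, Rpl22l1 and Rpl36al lie outside the rule and are given separately.

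A cytoplasmic ribosome holds 1 copy of nearly every one of these proteins, arranged around the ribosomal RNAs, and the cell makes them in matched amounts. Most of their mRNAs begin with a run of pyrimidines, the 5′ terminal oligopyrimidine (TOP) tract, through which mTOR signalling and the RNA-binding protein LARP1 set their translation. In erythroid progenitors the demand for new ribosomes is high, and loss of a single copy of any of a number of these genes causes Diamond-Blackfan anaemia, a failure of red cell production. Ribosomal protein mRNAs have also been copied back into the genome many times, so that nearly every one of these genes has intronless relatives, most of them classed as pseudogenes.

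The data comprise 12 libraries, 3 in each of 4 groups, and each library came from PreMegE pooled from 3 C57BL/6 mice of 12 to 16 weeks. WT cells were wild type and were not divided by P2 activity. P2- and P2+ cells both came from Runx1 P1-GFP::P2-hCD4/+ mice, which carry 1 reporter allele with GFP at the distal P1 promoter and human CD4 at the proximal P2 promoter of Runx1, and they were sorted by the absence or presence of the hCD4 reporter; both express the P1 reporter. KO cells came from mice with a RUNX1C knockout, homozygous for the GFP insertion at P1, in which the P1 product RUNX1C is lost and P2 is left in place. The reporter allele was present in P2- and P2+ but not in WT, so that the allele and the sort cannot be told apart in comparisons with WT. The pools were whole sorted populations, in which fewer cells of a type and less RNA per cell cannot be told apart.

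Libraries held 10726098 to 14445026 counts, and 3 counts corresponded to 0.208 to 0.28 counts per 1000000 (CPM), the limit that a count of 0 allows, for counting error only. Runx1 was counted at 357 to 387 CPM in WT, 203 to 217 in P2-, 613 to 659 in P2+ and 341 to 381 in KO; the gene total includes P2 transcripts and so does not check the loss of RUNX1C. Genes of the PreMegE gate (Kit, Gata1, Gata2 and others) summed to 2731 to 3288 CPM in every library, although members of this list of 6 moved in opposite directions. Its calls were 2 up and 2 down for P2+ against P2-, 1 up and 1 down for P2+ against WT, 0 up and 3 down for P2- against WT, and 3 up and 2 down for KO against WT. Megakaryocyte markers were higher and erythroid markers lower in P2+ than in P2-: 9 of 10 and 8 of 8 tested genes passed the test, and the erythroid sum was 804 to 1006 CPM in P2+ against 3161 to 3742 in P2-. The P2- and P2+ libraries numbered 2 stood apart, with immediate early genes (Fos, Jun, Egr1 and others) at 12240 and 8182 CPM against 153 to 1160 in the other libraries. They also differed in sex: Xist, expressed from the inactive X of females, had 0 and 75 counts in these libraries and at least 8954 in the other 10, while the P2- and P2+ libraries numbered 3 had 0 counts of Y-linked genes and the remaining libraries held both. Neutrophil and monocyte markers (6 of 9 tested), lymphoid markers (3 of 5) and mast and basophil markers (3 of 3) were also higher in P2+ than in P2-, at sums of 298 to 438, 25.1 to 52.1 and 84.3 to 137 CPM in P2+ against 59.8 to 115, 9.42 to 13.5 and 24.5 to 28.3 in P2-. The part of these differences in the values below was not tested.

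Many ribosomal protein genes share sequence with copies that were counted as genes of their own. A copy was defined as another gene at least 20% of whose 25-base words occur in a ribosomal protein transcript; 595 genes met this, 586 of them with 1 exon, and 78 of the 82 ribosomal protein genes had at least 1. The reads had been aligned with Bowtie2, which places a read without splitting it over an intron. Where an intron interrupts the gene, an intronless copy runs on. Of 234 such junctions in 71 genes, 157 had the same 50 bases in the most counted copy and 41 differed at 1 base. The junctions of 4 genes are shown as examples because nearly all the counts of these genes and their copies lay in 1 intronless copy. Each is the last 25 bases of the upstream exon in lower case and the first 25 of the downstream exon in capitals, 5′ to 3′ along the mRNA, from GENCODE vM21 transcripts (GRCm38), and the copy, read from its own locus, is identical in all 4 pairs.
Rps16, exons 1 and 2 (plus strand, 140-base intron after chr7:28350851): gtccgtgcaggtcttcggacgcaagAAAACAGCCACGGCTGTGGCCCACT
Rps16-ps2 (chr5:129128077-129128517, minus strand): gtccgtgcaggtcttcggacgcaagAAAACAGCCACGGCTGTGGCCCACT
Fau, exons 1 and 2 (plus strand, 102-base intron after chr19:6058325): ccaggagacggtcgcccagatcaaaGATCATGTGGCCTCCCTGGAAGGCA
Gm9843 (chr16:76403251-76403652, minus strand): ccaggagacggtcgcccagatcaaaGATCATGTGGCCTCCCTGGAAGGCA
Rpl38, exons 2 and 3 (plus strand, 2767-base intron after chr11:114668966): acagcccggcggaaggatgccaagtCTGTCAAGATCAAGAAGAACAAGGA
Rpl38-ps2 (chr6:140746960-140747172, minus strand): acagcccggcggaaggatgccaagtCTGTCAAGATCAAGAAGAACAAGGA
Rps26, exons 2 and 3 (minus strand, 725-base intron after chr10:128626063): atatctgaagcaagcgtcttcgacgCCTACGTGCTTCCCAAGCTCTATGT
Rps26-ps1 (chr8:107439131-107439579, minus strand): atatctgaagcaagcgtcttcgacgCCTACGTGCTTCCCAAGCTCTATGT

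Over the 12 libraries Rps16, a protein of the small subunit head, had 776 counts of its own and 117175 in its copies. Fau, a ubiquitin-like protein fused to eS30, had 462 of its own against 100885, Rpl38 had 269 against 35700, and Rps26 had 2992 against 150412. More counts lay in the copies than in the gene itself for 52 of the 82, and at least 10 times more for 25. At the other end, genes such as Rpl8, Rps9, Rpl23 and Rps4l had all their counts in the gene itself, as no read was given to a copy of theirs or they had none. Rplp2 had 2401 counts and 1 in its copies, but Wdr89, 1 of whose transcripts holds a stretch of Rplp2 that is under 20% of its length, was counted at 1166 to 1697 CPM; it was named after its values were seen. The share of a gene's 75-base windows that also occur in another gene was 42.0% in the median and up to 98.5%. Across the 79 genes above the expression filter, this share and the share of counts kept by the gene itself had a Spearman correlation of -0.30, and the number of copies and that share one of -0.08, descriptions across genes that share their libraries. Of the 82 genes, 27 overlap another annotated gene on the same strand and 18 on the other strand, and how reads there were assigned is not given. Which locus a shared read came from cannot be told from the counts, so the main results are given for the gene alone and for the gene plus its copies.

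**Figure D1:**
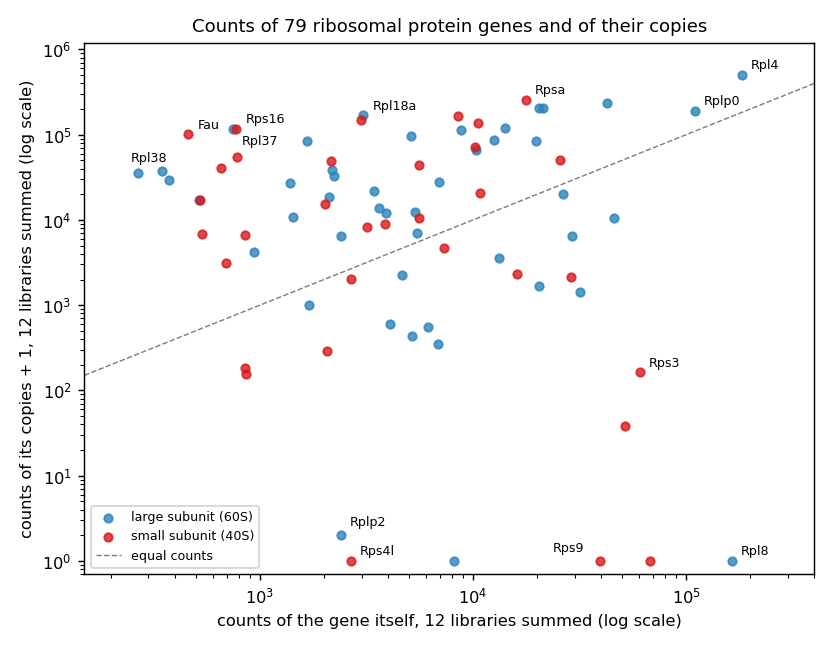
Each point is 1 of the 79 ribosomal protein genes above the filter, with the counts of the gene itself on the x axis and the counts of its copies plus 1 on the y axis, both summed over 12 libraries on log scales, blue for 60S and red for 40S. Points above the dashed line have more counts in copies than in the gene; Rps16, Fau and Rpl38 lie far above it, and Rpl8, Rps9 and Rps4l at the bottom with no copy counts.

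Levels per kilobase of exon spanned more than 2 orders of magnitude, although a ribosome holds 1 copy of nearly every product. The length used joins the exons of all annotated transcripts, which for Rps28 was 1719 bases against 437 in its main transcript. Rpl8 stood at 800 CPM per kilobase, Rpl4 at 604 and Rplp0 at 439, whereas Rpl35, Rps28 and Rps13 stood at 2.02, 2.10 and 2.13. These last 3 held 1.25, 7.27 and 11.3% of the counts of the gene and its copies together, and stood at 2.51, 3.62 and 5.74 CPM alone and at 198.6, 48.6 and 50.3 with the copies added. By CPM, Rpl4, Rpl8, Rplp0 and Rps3 were among the highest, with means over the 12 libraries of 1212, 1087, 728 and 402. The 5 lowest of the genes above the filter were Rpl38, Rpl24, Rpl35, Fau and Rpl23a, at 1.81 to 3.42 CPM. With their copies they stood at 238.5, 252.7, 198.6, 673.3 and 115.8 CPM. Rpl4 and Rpl8 alone held 27.4% of the CPM of the 82 genes. Rpl3l, Rpl10l and Rpl39l, paralogs known mainly from muscle or testis, had 0 to 5 counts in each library and were below the filter.

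The ribosomal protein genes took the smallest share of a library in P2+ and the largest in P2-. The share was 0.685, 0.739 and 0.739% in the 3 P2+ libraries and 0.922, 0.929 and 0.925% in P2-. WT lay between them at 0.850, 0.797 and 0.875%, and KO at 0.847, 0.845 and 0.886%. P2+ did not overlap with any other group, P2- did not overlap with any other group, and WT and KO overlapped. The mean share was 22.1% lower in P2+ (0.721% ± 0.031, SD, n = 3) than in P2- (0.925% ± 0.0034, n = 3), 14.2% lower in P2+ than in WT (0.841% ± 0.040, n = 3), 10.1% higher in P2- than in WT and 2.21% higher in KO (0.859% ± 0.023, n = 3) than in WT. These sums over the chosen genes are given as a description. With the copies added the shares were 2.90 to 3.22% in P2+, 3.73 to 3.95% in P2-, 3.36 to 3.71% in WT and 3.56 to 3.67% in KO, again in that order with the same groups not overlapping. The copies held 3.02 to 3.35 counts for each count of the genes, with the groups overlapping. The ratio of 60S to 40S counts was 2.09 to 2.23 in the 12 libraries; KO, at 2.20 to 2.23, lay above WT, at 2.13 to 2.18, and the other pairs of groups overlapped.

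**Figure D2:**
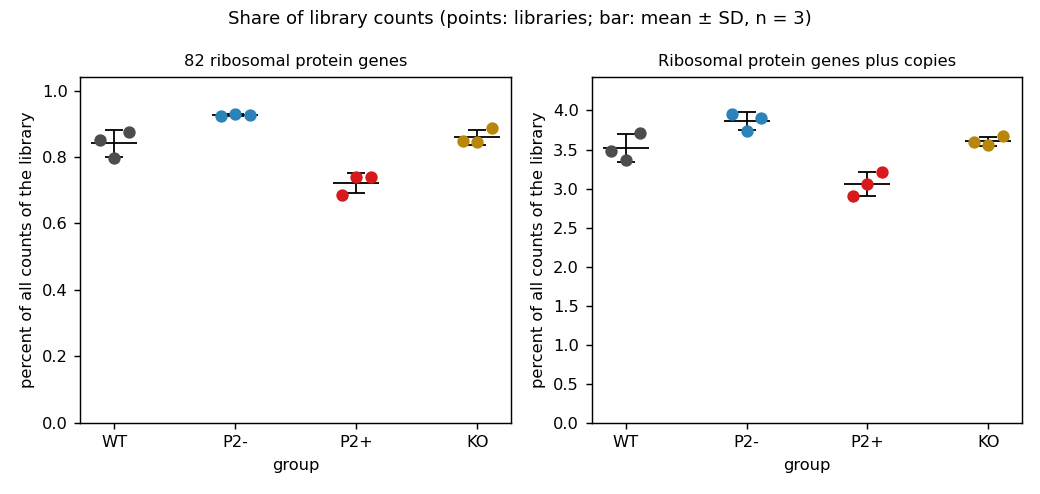
The y axis is the percent of all counts of a library, for the 82 ribosomal protein genes (left) and for the genes plus their copies (right), by group on the x axis; points are libraries in replicate order and bars are the mean ± SD of 3. P2+ is lowest and P2- highest in both panels, at 0.721 and 0.925% in the left one.

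The largest set of differences lay between P2+ and P2-, the comparison of progenitors with and without activity of the proximal promoter. Of 79 genes tested, 36 were lower in P2+ (adjusted p under 0.05, edgeR's quasi-likelihood test over all genes) and 0 were higher. Among all 12836 genes tested, 17.0% were lower and 20.1% higher, so that the share of ribosomal protein genes called lower, 45.6%, was above the background and the share called higher below it. At an unadjusted p under 0.05, 42 were lower and 0 higher, where 22.1% and 24.1% of all genes were. DESeq2 called 40 lower and 0 higher (17.7% and 20.6% of all genes), and edgeR's exact test 28 and 0 (14.1% and 18.9%). The median log2 fold change of the 79 was -0.45, against -0.02 for all genes tested, and 76 of the 79 were below 0. All 3 P2+ libraries lay below all 3 P2- libraries for 39 genes, while 25.1% of all genes did so. The differences were small: 0 genes passed with a fold change of at least 2, where 12.7% of all genes did, and at an unadjusted p 1 gene, Rpl34, was past that size. With the replicate block described next, Rpl34 passed at that size (-1.03, adjusted p = 0.000761).

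Libraries with the same number deviated together in P2+ and P2-, and with the number as a replicate block all 36 remained lower and 19 more passed, 55 in all, where 24.8% of all genes were lower in that fit. With the block 1 gene was higher, Rps4l, against 25.9% of all genes. Without P2+ replicate 1 the count lower was 21 in place of 36, without P2- replicate 2 it was 27 with 1 gene higher, and without both libraries numbered 2 it was 36. With the copies added, 61 of 79 were lower and 0 higher (17.3% lower among all genes in that fit), 66 and 0 at an unadjusted p under 0.05 (22.2% and 24.2% of all genes), and the median was -0.39.

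Among the genes with the largest called falls were proteins of both subunits. Rplp1, an acidic protein of the stalk that recruits elongation factors, was at 221, 207 and 205 CPM in P2- and at 121, 123 and 142 in P2+. The groups were far apart, with a log2 fold change of -0.70 ± 0.083 (SE) and an adjusted p of 0.000262. Rpl3, which lies next to the peptidyl transferase centre, was at 99.1, 138.7 and 111.1 CPM in P2- and at 64.5, 78.3 and 64.4 in P2+. The library numbered 2 was the highest of each group, and the difference of -0.74 ± 0.14 (adjusted p = 0.00273) fell to -0.34 (adjusted p = 0.00358) with the copies of Rpl3 added.

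Rpl32 was at 28.4, 29.4 and 33.9 CPM in P2- and at 18.5, 18.6 and 16.3 in P2+, and here the number 2 libraries did not stand out. Its log2 fold change was -0.77 ± 0.13 (adjusted p = 0.00159) and stayed at -0.72 with the copies, which added few counts. Rps18, a protein of the small subunit head, was at 52.4, 64.2 and 57.6 CPM against 32.2, 39.5 and 35.1, and Rpl12, at the base of the stalk, at 75.1, 86.1 and 81.8 against 47.2, 51.0 and 53.8. Their log2 fold changes were -0.69 ± 0.12 (adjusted p = 0.00211) and -0.66 ± 0.092 (adjusted p = 0.000656). Both kept P2+ wholly below P2-.

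The other 3 of the 8 largest called falls were of low genes. Rps25, needed for initiation at some viral internal ribosome entry sites, was at 13.6, 20.8 and 16.3 CPM in P2- and at 7.20, 11.9 and 6.64 in P2+ (log2 fold change -0.96 ± 0.26, adjusted p = 0.0184), and moved to -0.44 with its copies. Rps7 was at 4.78, 9.22 and 7.06 CPM against 3.35, 4.28 and 2.97 (-0.97 ± 0.30, adjusted p = 0.0318), and moved to -0.43 with its copies. Rpl36a differed by -0.65 ± 0.16 (adjusted p = 0.0109), and by -0.45 with its copies. The calls of Rps25 and Rps7 were lost when single libraries were left out, and those of the other 6 were kept in every other fit tried.

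**Figure D3:**
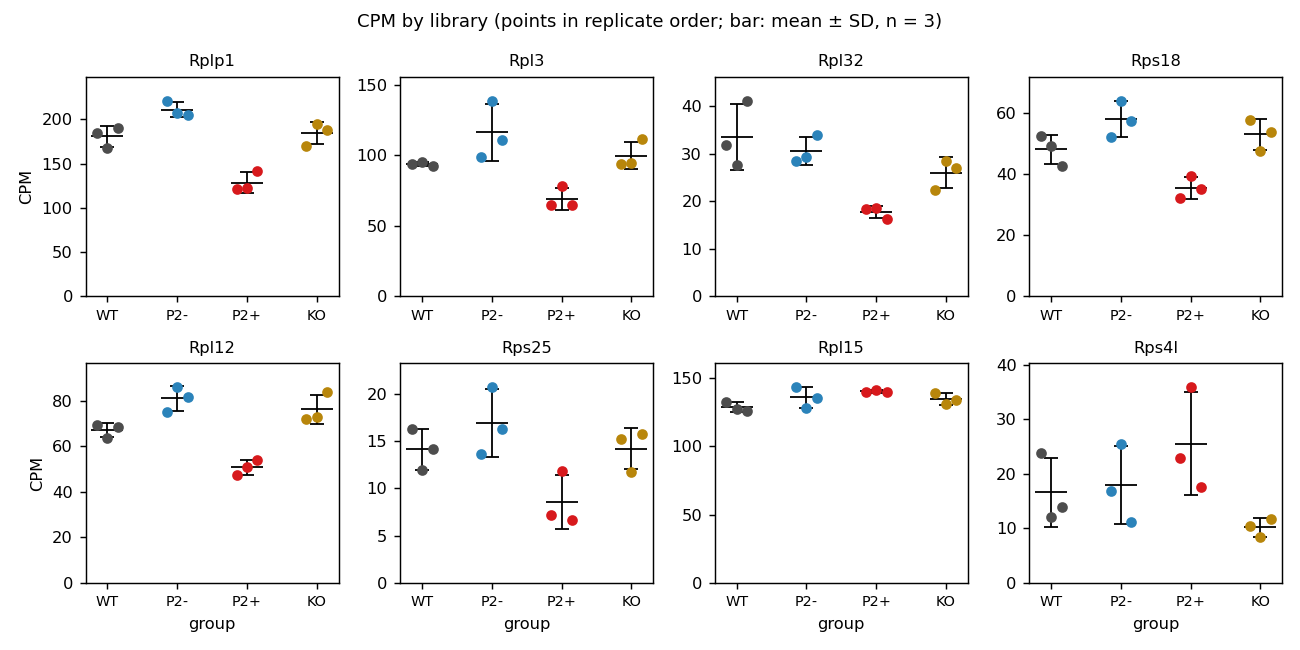
CPM (y axis, from 0) of 8 ribosomal protein genes in each library, by group on the x axis, with the mean ± SD of 3 libraries. Rplp1, Rpl3, Rpl32, Rps18, Rpl12 and Rps25 have all 3 P2+ libraries below P2-; Rpl15 and Rps4l do not.

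The genes with the most counts showed the difference with the smallest errors. Rpl4 was at 1403, 1315 and 1374 CPM in P2- and at 1027, 1037 and 1088 in P2+, without overlap, a log2 fold change of -0.36 ± 0.060 (adjusted p = 0.00164). Rpl8, which has no counted copy, was at 1269, 1181 and 1203 against 898, 919 and 1004 (-0.36 ± 0.068, adjusted p = 0.00337). Rps3 at -0.30, Rps9 at -0.52 and Rplp0 at -0.56 also fell. Genes that hold at least 90% of the counts of the gene and its copies numbered 14 among those tested, Rplp2 among them: 8 were lower, 0 were higher and their median was -0.39. With the replicate block 12 of them were lower and 1, Rps4l, higher. Among the 25 that hold under 10%, 7 were lower alone, 11 with the replicate block and 23 with their copies added, and the range of log2 fold changes narrowed from -1.02 to -0.14 into -0.55 to -0.25.

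A few genes lay near 0. Rpl15, a core protein of the large subunit, was at 143.6, 128.5 and 135.8 CPM in P2- and at 139.8, 141.2 and 139.8 in P2+, so that the groups overlapped and the difference was 0.06 ± 0.069 (adjusted p = 0.556). Rpl22, which also acts outside the ribosome in lymphocyte development, was at 327, 277 and 324 CPM against 290, 273 and 305 (-0.09 ± 0.087, adjusted p = 0.486). Rpl21, Rpl39 and Rps23 were between -0.08 and 0.01. Rps4l is an intronless autosomal relative of Rps4x, protein-coding by its biotype in the deposited counts but a processed transcript in GENCODE vM21. It was the one gene with a log2 fold change above 0.1: it was at 16.9, 25.5 and 11.2 CPM in P2- and at 23.0, 35.9 and 17.5 in P2+ (0.53 ± 0.33, adjusted p = 0.24), and rose within each numbered pair (0.54, adjusted p = 0.00244, with the replicate block).

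By role, 19 of the 46 tested 60S genes and 17 of the 33 40S genes were lower, with medians of -0.45 and -0.48, and 34 and 27 were lower with their copies and 32 and 23 with the replicate block. Of the stalk genes Rplp0 and Rplp1 fell, while Rplp2 was at -0.68 with an adjusted p of 0.158 and P2- replicate 2 far above the rest. It was lower with the replicate block (-0.65, adjusted p = 0.00163). Rpl5 and Rpl11, which carry 5S RNA into the large subunit and, when free, bind MDM2, were at -0.19 and -0.38 and did not pass alone (adjusted p = 0.202 and 0.277); with their copies they fell by 0.34 and 0.33. Fau and Rps27a, made as fusions to ubiquitin-like or ubiquitin sequence, did not pass alone at 3.07 and 25.9 CPM over the 12 libraries, and fell by 0.30 and 0.51 with their copies. With the replicate block Rps27a alone was lower too (-0.59, adjusted p = 0.00365). Of 20 genes mutated in Diamond-Blackfan anaemia, 7 were lower (among them Rps7, Rps10, Rps20, Rps24, Rps26 and Rpl31) and 0 higher, with a median of -0.43, close to that of all 79; with the copies 16 were lower, and with the replicate block 12. Rps19, the gene most often mutated in that disease, was at 14.5, 22.4 and 15.5 CPM in P2- and at 10.6, 15.1 and 6.48 in P2+, overlapping at -0.69 ± 0.30 (adjusted p = 0.104), and fell by 0.42 with its copies (adjusted p = 0.00271). It was lower in each numbered pair, and passed with the replicate block (-0.73, adjusted p = 0.00341).

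**Figure D4:**
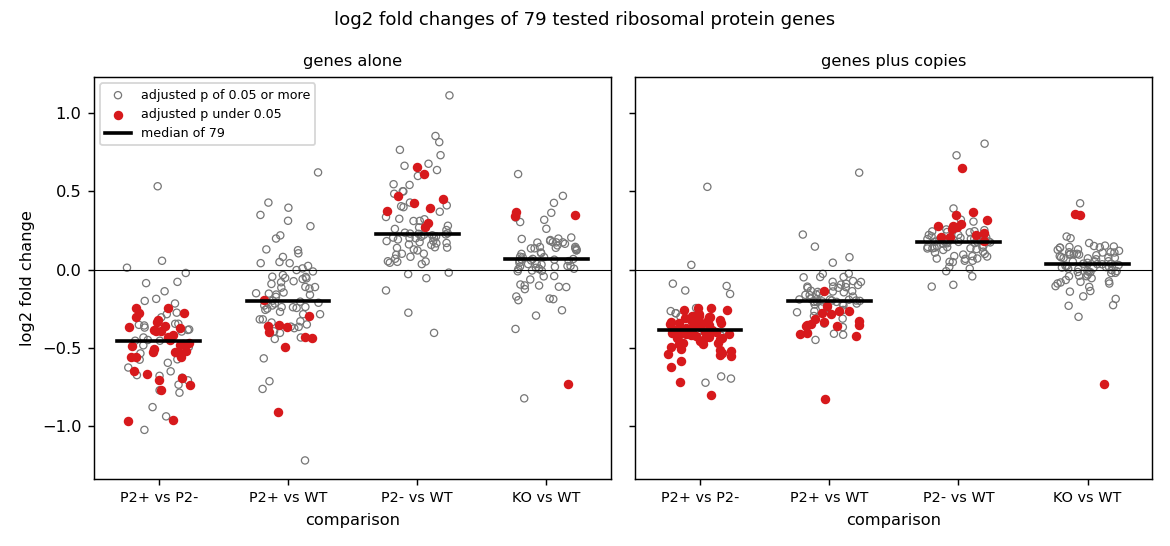
Each point is a log2 fold change (y axis) of 1 of 79 genes in the 4 comparisons (x axis), for the genes alone (left) and the genes plus copies (right); red points passed at an adjusted p under 0.05 and the black line is the median of 79. The medians on the left are -0.45, -0.20, 0.23 and 0.07, and the spread is narrower on the right.

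Against WT the differences were smaller; these 3 comparisons share the WT libraries and are not independent of each other or of the first. In P2+, 10 genes were lower than in WT and 0 higher, 12.7% and none of 79 where 7.07% and 9.45% of all genes were. At an unadjusted p under 0.05, 24 were lower and 0 higher (14.1% and 16.6% of all genes), and DESeq2 called 16 and 0 (8.56% and 10.6%). For 24 genes all P2+ libraries lay below all WT libraries, against 17.4% of all genes. The median was -0.20, and 0 genes passed at a fold change of at least 2 (3.84% of all genes; 1 gene, Rpl38, by size at an unadjusted p). With copies, 18 were lower and 0 higher (7.19% lower among all genes). At an unadjusted p it was 40 and 0, against 14.2% and 16.6% of all genes. Erythroid markers were lower in P2+ than in WT (7 of 8 tested), and of 10 megakaryocyte markers 5 were higher and 1 lower. Mast and basophil (2 of 3) and neutrophil and monocyte markers (2 of 7) were higher. Their part here was not tested. Counts lower were 4 without WT replicate 1, 6 without WT replicate 3, 4 without P2+ replicate 1 and 19 without P2+ replicate 2.

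Rpl32 had the largest called fall, at 31.8, 27.6 and 41.2 CPM in WT against 18.5, 18.6 and 16.3 in P2+, a log2 fold change of -0.91 ± 0.16 (adjusted p = 0.00343) with no overlap. Rplp1 was at 184, 168 and 191 CPM in WT and fell by 0.49 (adjusted p = 0.00404), and Rpl3 was at 93.5, 95.2 and 92.7 and fell by 0.44 (adjusted p = 0.0102). Rps18, Rpl12, Rps24, Rps9 and Rplp0 fell by 0.43, 0.40, 0.37, 0.36 and 0.35. The calls of Rpl3 and Rps24 were lost with their copies added, at -0.17 and -0.22. Over all alternatives the calls of Rps18, Rps24, Rps9, Rplp0 and Rpl3 were lost under 4, 5, 3, 4 and 2. Those of Rpl32, Rplp1 and Rpl12 were kept throughout.

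P2- lay above WT. Here 9 genes were higher and 0 lower, against 6.85% and 9.6% of all genes. At an unadjusted p under 0.05, 27 were higher and 1 lower (14.7% and 15.8% of all genes), and DESeq2 called 15 and 0 (8.08% and 10.8%). All P2- libraries lay above all WT libraries for 29 genes, against 16.9% of all genes, and the median was 0.23. No gene passed at a fold change of at least 2 (4.68% of all genes; 1 gene, Rpl35, by size at an unadjusted p), and 14 were higher and 0 lower with copies (6.96% higher among all genes). At an unadjusted p it was 39 and 0, against 14.8% and 15.9% of all genes. Rpsa, the laminin receptor protein of the 40S subunit, was at 108, 111 and 112 CPM in WT and at 132, 136 and 138 in P2-, without overlap (0.30 ± 0.069, adjusted p = 0.0157). Rps2 was at 176, 162 and 192 against 247, 224 and 216 (0.37 ± 0.088, adjusted p = 0.017). Rps6, the ribosomal substrate of S6 kinase, rose by 0.42, Rpl13 by 0.40, Rpl31 by 0.45, Rpl30 by 0.47, Rpl36a by 0.61 and Rpl27 by 0.66. Rpl27 was at 28.2, 25.9 and 28.9 CPM in WT and at 39.6, 55.6 and 36.0 in P2-, the highest value being that of the library numbered 2. With their copies added Rpl30, Rpl31 and Rpl36a were at 0.07, 0.24 and 0.26 and did not pass. Rps6 held 4.955% of the counts of the gene and its copies, and was as low as 0.21 among the alternatives. Erythroid markers were higher in P2- than in WT (8 of 8 tested) and megakaryocyte (9 of 10), neutrophil and monocyte (5 of 8) and lymphoid markers (3 of 5) lower. The neutrophil and monocyte list ran from -3.119 to 2.715 in log2 fold change, with 0 called higher. The part of these markers here was not tested. The count higher was 1 without WT replicate 1, 1 without WT replicate 2, 14 without P2- replicate 1, and 2 without WT replicate 2 and P2- replicate 2.

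In KO the genes stood close to WT. Rpl10a, Rpl10 and Rpl27 were higher and Rps4l lower, 3 and 1 of 79, where 6.18% and 8.76% of all genes were higher and lower. At an unadjusted p under 0.05 there were 12 higher and 5 lower, against 12.5% and 14.6% of all genes, and DESeq2 called 3 and 2, against 6.63% and 8.66%. The median was 0.07, all KO libraries lay above all WT libraries for 16 genes (15.6% of all genes), and 0 genes passed at a fold change of at least 2 (3.41% of all genes; 0 by size at an unadjusted p). Rpl10a was at 152, 144 and 105 CPM in WT and at 181, 156 and 185 in KO, without overlap (0.37 ± 0.10, adjusted p = 0.0243), but was at 0.09 with its copies added. With 1 library left out it ran from 0.22 to 0.47. Rpl10, an X-linked gene whose product completes the 60S subunit, was at 38.3, 31.7 and 37.9 CPM against 46.6, 39.9 and 52.0 (0.35 ± 0.11, adjusted p = 0.0474). Rpl27 was at 35.8, 35.0 and 35.2 CPM in KO (0.34 ± 0.10, adjusted p = 0.0321), above its 3 WT values. The calls of Rpl10a, Rpl10 and Rpl27 were lost under 6, 8 and 7 of the alternatives.

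Rps4l, highest in P2+, was lowest in KO, at 10.5, 8.30 and 11.7 CPM against 23.8, 12.1 and 13.9 in WT (-0.73 ± 0.22, adjusted p = 0.0352). Erythroid markers were higher in KO than in WT (7 of 8 tested, sums of 2991 to 3375 against 1924 to 2165 CPM), as were 2 of 2 mast and basophil markers. Megakaryocyte (6 of 10, with 1 higher), neutrophil and monocyte (6 of 7) and lymphoid markers (2 of 5) were lower, and the part of these cell types here was not tested. With copies, 2 genes were higher (6.27% of all) and 1 lower (8.85% of all). The call of Rps4l was lost without WT replicate 1 or any 1 KO library, and its log2 fold change ran from -0.90 to -0.37 with 1 library left out. Without WT replicate 2 there were 1 higher and 2 lower, without WT replicate 3 there were 2 lower, without KO replicate 1 or 3 there were 0 in either direction, and in 1 fit of all 12 libraries 0 genes were called in either direction. KO and WT differ in genotype and possibly in when they were prepared, which cannot be told apart.

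Over the 4 groups, the means of 56 of the 79 genes followed the order P2+ below WT below P2-, and 70 did with their copies, where 30.1% of all genes above the filter did. WT was the population not divided by P2 activity. The KO mean lay above P2+ and below P2- for 62 genes, and for 74 with copies, where 26.8% of all genes showed this. Both orders can be met only by genes lower in P2+ than in P2-, as 76 of the 79 were by log2 fold change. They are not separate from that difference. A second pattern crossed the groups. In 45 of the 79 genes, 57.0%, the library numbered 2 was the highest of the 3 in both P2- and P2+, where 19.5% of all genes showed this; with copies added, 17 of 79 did. These 45 were mostly low genes, with a median of 17.5 CPM against 124.5 for the other 34. Without the replicate block, 10 of them were called lower in P2+ than in P2- against 26 of the 34, where 17.0% of all genes were. The block takes up shifts shared by same-numbered libraries, and with it 55 of the 79 were lower. The P2- and P2+ libraries numbered 2 were those with high immediate early genes and with Xist at or near 0, and the part of either in this pattern was not tested.

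**Figure D5:**
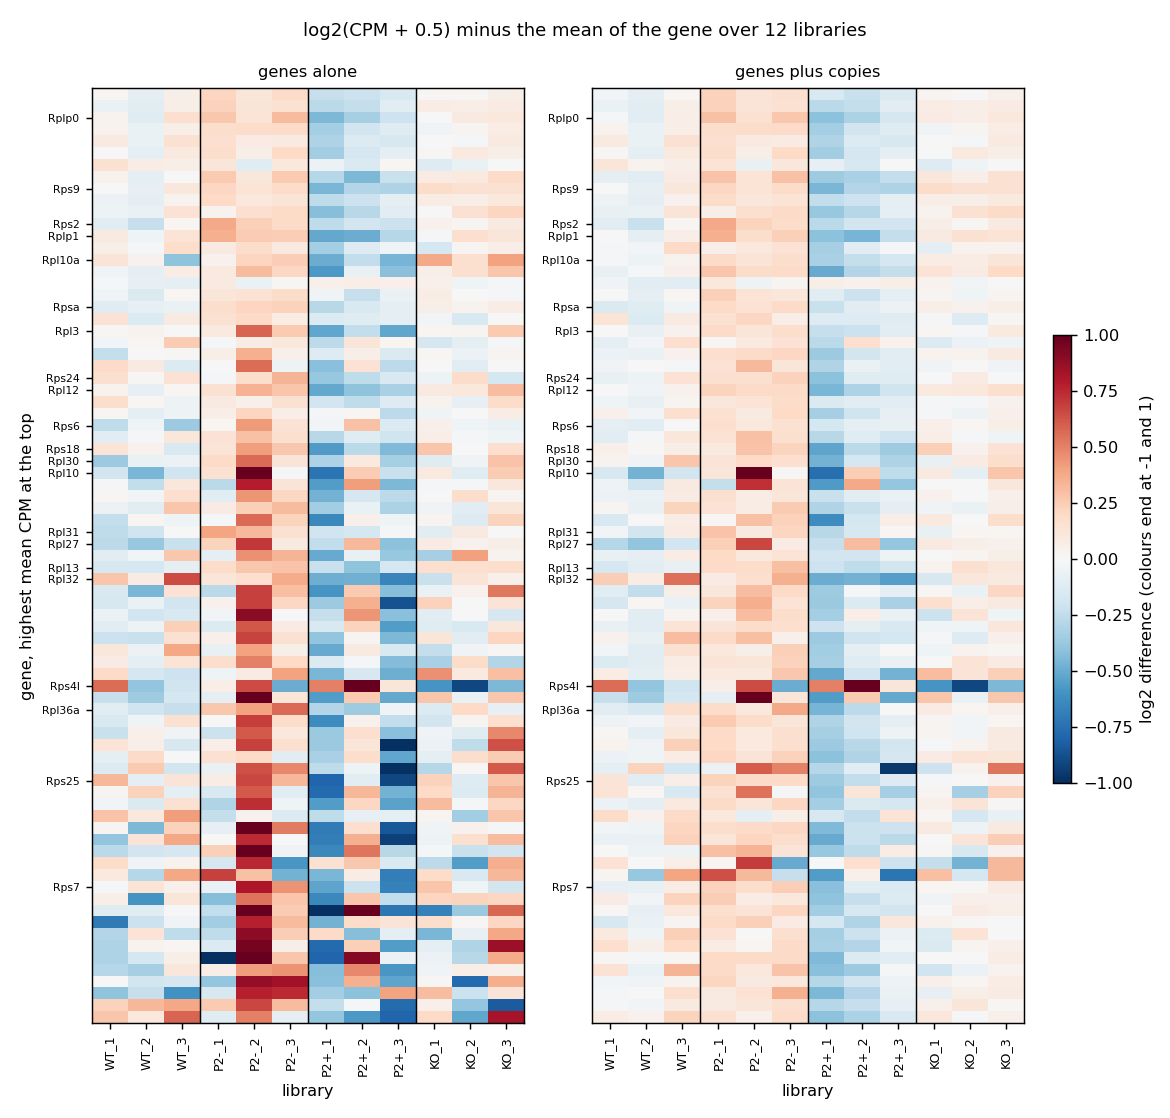
Rows are the 79 genes, highest mean CPM at the top and labelled for the genes with the largest called changes, and columns the 12 libraries; colour gives log2(CPM + 0.5) minus the mean of that gene over the libraries, for genes alone (left) and plus copies (right), ending at -1 and 1. P2+ columns are blue and P2- columns red through most rows on the right, while on the left the libraries numbered 2 are red in many low genes.

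The start sites of 61 of the genes were found in RefSeq (GRCm38.p6). A tract of at least 5 pyrimidines opening with C, from 5 bases before to 10 after the start, was present in 35 of them, 57.4%, against 27.7% of 27025 genes, and a tract of at least 8 in 23, 37.7%, against 7.01%. The core of ETS-family sites, CCGGAAG on either strand, was in 41.0% of the promoters from 250 bases before to 50 after the start, against 9.93% of all, and the YY1-type AAGATGGC on either strand in 9.84% against 3.19%; the 2 motifs can overlap at AAG. A match is a description and not a site. Among tested genes with a tract, 12 of 34 were lower in P2+ than in P2- (median -0.48), and among those without, 12 of 24 (median -0.41); with copies it was 24 and 20, and with the replicate block 22 and 17. The start sites of 4 genes, from 30 bases before to 20 into the transcript with the tract in capitals, are shown to set genes that fell beside one that did not. Rps18 and Rpl12 fell and have a tract, Rplp0 fell and has none by this rule, and Rpl15 did not pass the test and has the longest of the 4.
Rps18 (chr17:33955646-33955695, minus strand): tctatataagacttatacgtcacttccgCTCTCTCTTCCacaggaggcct
Rpl12 (chr2:32961682-32961731, plus strand): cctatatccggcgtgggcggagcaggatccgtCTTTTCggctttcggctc
Rplp0 (chr5:115559437-115559486, plus strand): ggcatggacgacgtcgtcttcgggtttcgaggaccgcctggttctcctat
Rpl15 (chr14:18270967-18271016, minus strand): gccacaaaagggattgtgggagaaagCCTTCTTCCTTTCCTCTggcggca

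Other TOP mRNAs include those of elongation and initiation factors. Of 21 tested, 12 were lower and 1 higher in P2+ than in P2-, beside 17.0% and 20.1% of all genes, with a median of -0.39. Eef1a1, which brings aminoacyl-tRNA to the ribosome, was at 7521, 6795 and 7466 CPM in P2- and at 5504, 5535 and 6117 in P2+ (-0.33, adjusted p = 0.00199), and Eef2, the translocase, fell by 0.40 (adjusted p = 0.000423). Eef1b2 and Eif3e fell by 0.63 and 0.76, and Nap1l1, also in the chaperone list, was the 1 higher at 0.41. The list had 8 lower and 1 higher in P2+ against WT, beside 7.07% and 9.45% of all genes, and 6 higher and 0 lower in P2- against WT, beside 6.85% and 9.6%. In KO 1 of the 21 passed in each direction, below the 6.18% higher and 8.76% lower among all genes.

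Of 16 genes that control ribosomal protein mRNAs, 5 were lower and 0 higher in P2+ than in P2- (Myc, Eif4ebp1, Larp1, Eif4ebp2 and Max). Among all genes 17.0% were lower and 20.1% higher, which applies to the short lists below too. Myc, an activator of ribosome biogenesis, was at 813, 642 and 919 CPM in P2- and at 400, 399 and 396 in P2+ (-0.98, adjusted p = 0.000301), and at 616 to 662 in WT. Larp1, the TOP mRNA-binding protein, fell by 0.43, whereas Mtor (-0.11), Rptor (-0.06) and Rps6kb1 (-0.13) did not pass. Among 9 tested genes of the chaperone list, 4 were lower and 1 higher. Bccip, Grwd1, Heatr3 and Ltv1 fell by 0.55, 0.55, 0.46 and 0.46, and Nap1l1 rose by 0.41. Tsr2, the chaperone of eS26, was at -0.17 (adjusted p = 0.212). Of 5 genes of the p53 response to ribosomal stress, Trp53 and Phlda3 were lower in P2+ by 0.73 and 1.71 on the log2 scale, and Mdm2 (0.09), Cdkn1a (0.05) and Bbc3 (-0.39) did not pass. Cdkn1a was at 63.9 and 59.1 CPM in the libraries numbered 2 of P2- and P2+ and at 2.40 to 7.52 in the other 10.

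Of the relatives outside the naming rule, Rps3a1 and Rps27rt were lower in P2+ than in P2- (-0.38 and -0.41, adjusted p = 0.00986 and 0.00711). Rps27rt, which is also among the copies of Rps27, stood at 113.6 CPM over the 12 libraries against 3.49 for Rps27 itself. Rpl7l1 was at 168 to 181 CPM in P2- and 159 to 172 in P2+ (-0.05, adjusted p = 0.605). Rpl22l1 and Rpl36al, at 7.95 and 5.18 CPM, did not pass in any of the 4 comparisons. Of the 6 relatives tested in all, 2 were lower in P2+ than in P2-, beside 17.0% of all genes. In P2- against WT 1 was higher, beside 6.85%, and 0 passed in P2+ or KO against WT.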

How the data were processed

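RNA from PreMegE was sequenced by the authors as paired reads from strand-specific poly(A) libraries and aligned to GRCm38 with Bowtie2 (2.21 in the submitters' processing notes), and reads were counted per Ensembl gene with featureCounts; the strand setting and the handling of reads with several matches are not given in the sources used here. The deposited values are raw counts per gene for 12 libraries. From these, counts were compared with edgeR 4.0.16 (quasi-likelihood test, TMM scaling, genes kept at 1 CPM or more in 3 or more libraries of a comparison, R 4.3.3), with Benjamini-Hochberg adjustment over all genes; DESeq2 1.42.0 and edgeR's exact test were alternatives. CPM shown are scaled by TMM over 12 libraries. P-values of the main fit measure the spread between the 3 pools of a group and do not use the pairing of P2+ with P2-. Those with the replicate block measure the spread that is left after the numbered pairs. No 2 libraries of a group agreed within sampling noise (chi-square per degree of freedom at least 4.49).

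Copies were found by 25-base words in GENCODE vM21 transcripts, and their counts were added to those of the best-matching gene. Replicate numbers were taken to pair P2+ with P2- since same-numbered libraries deviated together over all genes (correlations 0.386, 0.572 and 0.405) and matched in Xist and Y-linked counts; the numbers come from the sample titles. Named genes were the 8 largest called rises and falls of each comparison, the role groups, the Diamond-Blackfan list, the highest and lowest 5, and listed regulators; the rule for members uses names and biotype only, but the members and lists were proposed and chosen with earlier results of these data known. The script was tested on simulated data. Alternatives are given in the closing section. A few items are not reported here.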

Additional observations from a re-analysis of the deposited data

How the results depend on the processing

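The median log2 fold change of the 79 genes kept its sign under every alternative in the 4 comparisons: -0.57 to -0.34 for P2+ against P2-, -0.38 to -0.14 for P2+ against WT, 0.12 to 0.32 for P2- against WT and 0.02 to 0.10 for KO against WT. With the replicate block, P2+ against P2- had 55 lower and 1 higher; in the 3 comparisons with WT the numbers did not pair libraries, and the block gave 9 lower, 6 higher, and 3 higher with 1 lower. A fold of at least 2 left 0 in each comparison without the block, and Rpl34 (-1.03) in P2+ against P2- with it. Leaving out 1 library gave 21 to 41 lower and 0 to 1 higher for P2+ against P2-, 4 to 19 lower for P2+ against WT, 1 to 14 higher for P2- against WT, and 0 to 4 higher and 0 to 2 lower for KO against WT. DESeq2 called 16 lower in P2+ against WT, 15 higher in P2- against WT and 2 lower in KO against WT. Upper-quartile factors, total counts and a filter of 1 count each gave 2 lower in KO, and 1 fit of all 12 libraries gave 0 in either direction. Chosen after seeing the data, adding copies matched by sequence gave 61 lower in P2+ against P2-, 18 lower in P2+ against WT and 14 higher in P2- against WT, and leaving out the library numbered 2 of each group compared gave 2 higher in P2- against WT (without WT and P2- replicates 2) and 1 higher in KO against WT (without WT and KO replicates 2). Adding named pseudogenes to the counts moved the share of a library from 0.841 to 2.02% in WT, 0.925 to 2.22% in P2-, 0.721 to 1.75% in P2+ and 0.859 to 2.07% in KO, and adding the copies moved it to 3.52, 3.86, 3.06 and 3.61%. Of 504 values of single named genes under the alternatives, 410 kept their side of the threshold, 94 did not and none changed sign; the cause was not tested.

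Of the 82 genes, 21 had under 10 CPM by themselves, many with most counts in copies (Fau 3.07 CPM alone and 673 with copies), and no test separated depth from read placement.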
